A study of Mus musculus with 6 samples.

Results

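The 39 Hox genes of the mouse were examined in LSKs, the Lin- Sca-1+ c-Kit+ cells of bone marrow among which hematopoietic stem cells and early progenitors are found, taken after irradiation. Members were the rows of the deposited expression table whose symbol was Hox, a cluster letter from a to d and a number, which gave 39 of 55487 genes. LSKs came from male Tespa1+/+ littermates and Tespa1-/- mice of a C57BL/6 background, aged 8 to 10 weeks, all of which had received 5 Gy of total body irradiation and were sampled at day 13. Tespa1 was deleted in the germ line, so every cell type of these mice lacked the intact gene, and both groups were irradiated. There were 3 libraries per genotype. Whether a library came from 1 mouse or from a pool was not stated, so the p-values measure the spread between these libraries, which may be technical.

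Hox proteins are transcription factors that bind DNA through a homeodomain. Their genes lie in 4 clusters, and genes at matching positions in different clusters, the paralogs, carry the same number. In the embryo the genes are switched on in the order in which they lie, from the low-numbered 3′ end of a cluster to the high-numbered 5′ end. In blood formation, genes of the HoxA and HoxB clusters are active in stem and progenitor cells and are shut down as cells mature. HOXA9 and HOXB4 are known for promoting self-renewal, and MEIS and PBX proteins bind DNA together with them.

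Of the 12 Hox genes with enough counts to test, 5 were lower in Tespa1-/- LSKs, namely Hoxa2, Hoxa3, Hoxa6, Hoxa10 and Hoxb2, and 0 were higher. Hoxa2 had enough counts only through its Tespa1+/+ libraries and so had to differ to be tested. A gene was called at an adjusted p under 0.05 in edgeR's quasi-likelihood test with a fold over 1.5 (Tespa1-/- over Tespa1+/+). Among all 15332 genes tested, 19.2% were called lower and 14% higher. By read count, the most abundant Hox genes were not among those called. Per gene length, Hoxa6 was about as abundant as Hoxb4 in Tespa1+/+ libraries, where their levels overlapped. Hoxa7 and Hoxb4 lay above their Tespa1+/+ values in all 3 Tespa1-/- libraries with a fold under 1.5, and Hoxa9 lay below them. HoxC and HoxD genes were at or near 0 counts in both genotypes.

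To show the sequence next to the start sites of genes with different behaviour, the bases upstream of 3 genes called lower (Hoxa2, Hoxa6, Hoxa10) are given beside those of the abundant Hoxa9 and Hoxb4, which were not called. Sequences are from RefSeq on build GRCm38.p6, 5′ to 3′ on the strand of the gene, and end at the start site except that of Hoxa6, which ends 50 bases before it so that annotated exons are left out. Capitals mark matches, on either strand, to the letters searched.
Hoxa2 (chr6:52164832-52165081, minus strand): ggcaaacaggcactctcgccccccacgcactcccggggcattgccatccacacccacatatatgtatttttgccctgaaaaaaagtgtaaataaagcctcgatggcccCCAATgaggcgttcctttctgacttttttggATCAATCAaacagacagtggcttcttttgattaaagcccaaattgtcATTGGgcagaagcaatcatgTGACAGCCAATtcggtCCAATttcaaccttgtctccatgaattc
Hoxa6 (chr6:52208723-52208922, minus strand): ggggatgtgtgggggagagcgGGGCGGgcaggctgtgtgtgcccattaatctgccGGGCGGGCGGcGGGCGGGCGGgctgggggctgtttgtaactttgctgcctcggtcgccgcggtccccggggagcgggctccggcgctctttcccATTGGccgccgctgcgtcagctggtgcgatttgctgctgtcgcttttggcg
Hoxa10 (chr6:52234940-52235189, minus strand): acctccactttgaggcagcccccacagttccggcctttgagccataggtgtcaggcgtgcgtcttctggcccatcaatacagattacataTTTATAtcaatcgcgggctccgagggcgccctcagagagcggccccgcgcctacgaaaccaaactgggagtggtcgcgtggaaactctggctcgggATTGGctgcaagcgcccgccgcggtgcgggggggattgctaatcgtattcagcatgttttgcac
Hoxa10, other start (chr6:52240855-52241104, minus strand): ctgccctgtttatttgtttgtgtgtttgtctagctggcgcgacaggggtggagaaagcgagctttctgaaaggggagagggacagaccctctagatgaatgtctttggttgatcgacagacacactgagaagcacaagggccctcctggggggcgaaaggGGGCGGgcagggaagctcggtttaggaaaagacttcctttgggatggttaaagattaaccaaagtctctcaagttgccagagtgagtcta
Hoxa9 (chr6:52227371-52227620, minus strand): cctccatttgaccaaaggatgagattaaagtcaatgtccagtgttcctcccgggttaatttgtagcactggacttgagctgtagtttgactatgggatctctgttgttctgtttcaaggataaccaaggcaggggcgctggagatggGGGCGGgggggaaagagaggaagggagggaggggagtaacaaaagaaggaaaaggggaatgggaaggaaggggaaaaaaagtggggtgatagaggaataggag
Hoxb4 (chr11:96318017-96318266, plus strand): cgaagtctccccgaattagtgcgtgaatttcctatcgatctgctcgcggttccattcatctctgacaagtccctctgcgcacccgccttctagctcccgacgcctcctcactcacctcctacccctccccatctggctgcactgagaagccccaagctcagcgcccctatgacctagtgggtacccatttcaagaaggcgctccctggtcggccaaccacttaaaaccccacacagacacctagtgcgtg

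RefSeq windows were found for 8 of the 12 tested genes (Hoxa2, Hoxa3, Hoxa5, Hoxa6, Hoxa7, Hoxa9, Hoxa10 and Hoxb4), with 2 windows for Hoxa10, both printed. Over the 250 bases before each start, 8 short motifs were searched on both strands. These were the core promoter letters TATAAA, the binding letters of nuclear factor Y, CCAAT, those of Sp1-type factors, GGGCGG, and the E-box, CACGTG. Sites described for pairs of PBX and Hox proteins were searched as TGATTTAT and, in a second form, as TGATTGAT. The MEIS site was searched as TGACAG and the cAMP response element as TGACGTCA. The Hoxa2 stretch held 4 matches to CCAAT, 1 to TGATTGAT and 1 to TGACAG, the last with a CCAAT right behind it. In the Hoxa6 stretch there were 5 GGGCGG matches, some of them overlapping each other, and 1 to CCAAT. The first Hoxa10 stretch held 1 TATAAA on the opposite strand and 1 CCAAT, and that of its other start, at the annotated 5′ end of the gene, held 1 GGGCGG. The Hoxa9 stretch held 1 GGGCGG, and the Hoxb4 stretch held none of these. Over all 32851 windows of this length, TGATTGAT was present in 0.67%, TGACAG in 15.9%, CCAAT in 33.85%, GGGCGG in 32.7% and TATAAA in 12.4%. TGATTTAT (0.84% of all windows), CACGTG (6.02%) and TGACGTCA (1.55%) had no match in any of the 9 windows of tested Hox genes. No motif was common to all 4 printed stretches of the genes called lower.

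The total count per library ranged from 12856630 to 30576981. Counts of the targeted gene Tespa1 were 626, 1033 and 533 for Tespa1+/+ against 261, 207 and 176 for Tespa1-/- (log2 fold change -1.23, SE 0.07, adjusted p 7.0e-06 in edgeR), so its transcripts were reduced without being lost. The defining markers of the sort were present in every library, with Kit at 332.7 ± 9.79 against 169.6 ± 6.13 normalised CPM (counts scaled to a common library size with TMM factors, SD, n = 3) and Ly6a, which encodes Sca-1, at 50.5 ± 11.6 against 40.4 ± 3.36 CPM (SD, n = 3; adjusted p 0.109, not passed). Of 14 LSK and stem cell markers, 11 were lower in Tespa1-/- LSKs and 0 higher, and their summed level was 1508.9 to 1552.8 CPM in Tespa1+/+ and 871.2 to 950.1 CPM in Tespa1-/- libraries. Of 9 neutrophil and promyelocyte markers, 6 were higher and 0 lower, and their summed level was 8499 to 9126 CPM in Tespa1+/+ and 13183.9 to 13610.5 CPM in Tespa1-/- libraries. Of these 6, Ngp, Ltf and Camp passed the filter on low counts only through Tespa1-/- libraries and so had to differ to be tested, as did Hba-a2 among the erythroid markers. Ngp, a secondary granule gene, had 3, 8 and 5 counts against 1226, 1054 and 885, while Ly6g, the surface marker of mature neutrophils, was at 0 counts in all Tespa1+/+ libraries and at 0.428 ± 0.115 CPM (SD, n = 3) in Tespa1-/- libraries. Itgam went the other way, at 29.6, 31.7 and 29.6 against 10.3, 24.2 and 27.5 CPM, and did not pass (edgeR adjusted p 0.152). Most of the summed level came from Mpo (mean 7523.6 against 10501.3 CPM, fold under 1.5) and Elane (1289.8 against 2572.9 CPM). The 4 erythroid markers summed to 9.98 to 12.1 CPM against 23.2 to 26.8 CPM (2 higher, 1 lower) and the 2 monocyte and macrophage markers to 137.9 to 142.8 CPM against 85.7 to 93.5 CPM (1 lower). Megakaryocyte markers (0 of 3 called) summed to 70.8 to 78.7 CPM against 60.1 to 63.2 CPM. B cell markers (2 of 4 lower) overlapped between genotypes at 31.4 to 35.3 CPM against 31.9 to 33.4 CPM, and the T cell markers Cd3e and Cd3g summed to at most 0.44 CPM in any library. These shifts moved with the Hox values that follow, and their part in them was not tested. In sorted bulk cells, fewer cells of a type and less RNA per cell cannot be told apart.

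Hox expression in LSKs came from HoxA and, to a lesser extent, HoxB. The HoxA cluster (chromosome 6, 52155590 to 52260880, minus strand, build GRCm38) held 85.5% to 86.0% of all Hox counts in Tespa1+/+ libraries and 81.7% to 84.2% in Tespa1-/- libraries. HoxB (chromosome 11, 96194316 to 96368256, plus strand) held almost all of the rest. Its summed level of 18.4, 18.7 and 17.1 CPM in Tespa1+/+ compared with 23.0, 20.3 and 19.8 CPM in Tespa1-/-, with no overlap. The sum over HoxA was 111.4, 110.4 and 104.8 CPM against 102.7, 108.4 and 98.5 CPM, and in CPM the genotypes overlapped. Over all 39 genes the sum was 129.8, 129.1 and 121.8 CPM against 125.8, 128.7 and 118.5 CPM, which overlapped as well. In FPKM the picture differed, but not through length alone. The TMM factors were 1.0344 to 1.0371 in Tespa1+/+ and 0.9643 to 0.9670 in Tespa1-/- libraries. Leaving them out lowers every Tespa1-/- value relative to Tespa1+/+, before any scaling by length. In FPKM (counts scaled by gene length and library total, with no TMM factor), the HoxA sum was 27.2, 27.1 and 25.6 against 21.6, 21.6 and 20.4, and that over all Hox genes 33.0, 33.0 and 30.7 against 28.6, 27.9 and 26.8, lower in every Tespa1-/- library. The HoxB sum was 5.74, 5.84 and 5.10 against 6.99, 6.31 and 6.36 FPKM, higher in every Tespa1-/- library. These sums carry no test.

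Of the 27 genes that did not pass the filter on low counts, 18 were at 0 in every library and 24 had at most 3 counts in every library. A count of 3 stands for 0.233 CPM in the smallest library and 0.098 CPM in the largest, and levels below this were not detectable at this depth. HoxC (chromosome 15, 102921103 to 103036852, plus strand) yielded only single counts of Hoxc5 and Hoxc6 in 3 libraries, and HoxD (chromosome 2, 74668310 to 74765142, plus strand) 1 count of Hoxd11 and 2 counts of Hoxd8, each in a single library. Hoxa11 and Hoxa13, the last genes at the 5′ side of HoxA, were at 0 throughout. Of the 3 genes above 3 counts in some library, Hoxb6 (2, 4 and 5 against 2, 2 and 0) and Hoxb9 (6, 5 and 0 against 0, 0 and 0) had too few counts for a difference to be read from them.

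**Figure D1:**
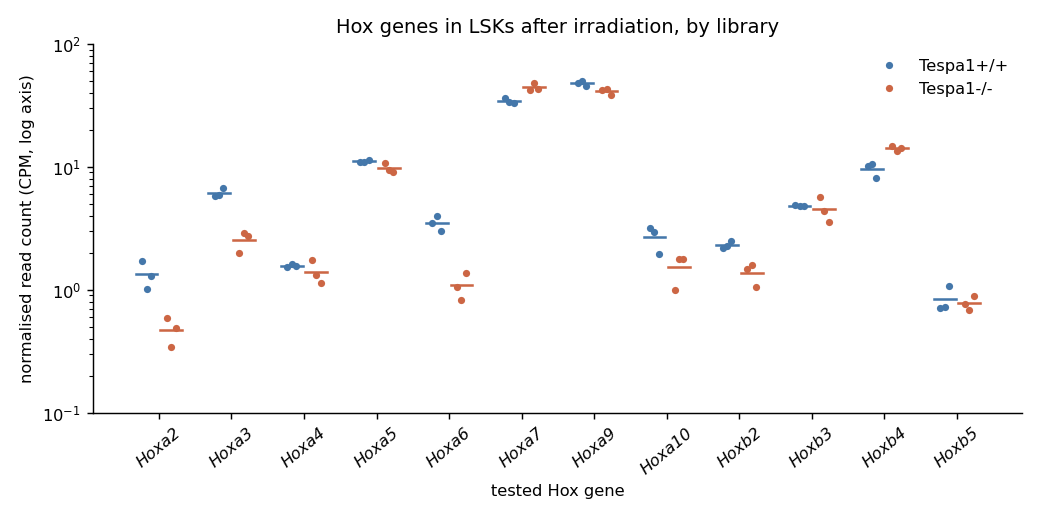
Normalised read count (CPM, log axis) of the 12 tested Hox genes, with a point per library and a bar at the mean of 3 libraries for Tespa1+/+ (blue) and Tespa1-/- (orange). Hoxa7 and Hoxa9 sit highest in both genotypes, and the points of Hoxa2, Hoxa3, Hoxa6, Hoxa10 and Hoxb2 lie lower in Tespa1-/- with no overlap.

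The genes of the 3′ side of HoxA were considered first. Hoxa2 (chromosome 6, 52162417 to 52164831), which patterns the hindbrain and branchial arches in the embryo, had 31, 32 and 19 counts in Tespa1+/+ and 10, 5 and 6 in Tespa1-/- libraries. All 3 Tespa1-/- values lay below the Tespa1+/+ values, and the log2 fold change was -1.44 (SE 0.33, adjusted p 0.00668). Hoxa2 passed the filter on low counts only through its Tespa1+/+ libraries, so that it had to differ to be tested at all, and it adds no support to the count. Hoxa3 (52169062 to 52213336), which is needed for thymus and parathyroid formation, had 105, 186 and 99 counts against 34, 42 and 34. Its level fell from 6.12 ± 0.489 to 2.54 ± 0.480 CPM (SD, n = 3), a log2 fold change of -1.27 (SE 0.16, adjusted p 3.7e-04). A read-through gene, Gm28308, shares 15% of the exonic bases of Hoxa2 and 8% of those of Hoxa3 on the same strand. It had 9, 10 and 4 counts against 1, 1 and 0 and was not tested.

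The middle of the cluster held both the gene with the largest fall and genes that did not pass. Hoxa4 (52189671 to 52191753) had 28, 51 and 23 counts against 30, 19 and 14, and in CPM the genotypes overlapped (log2 fold change -0.15, SE 0.21, adjusted p 0.603). Hoxa5 (52201754 to 52204587), which acts in lung development and in lineage choice of blood progenitors, was at 11.1 ± 0.290 against 9.72 ± 0.907 CPM (SD, n = 3; log2 fold change -0.18, SE 0.10, adjusted p 0.132). Its genotypes did not overlap, with 10.9, 10.9 and 11.4 against 10.7, 9.37 and 9.03 CPM, although the test was not passed. The next gene, Hoxa6 (52206288 to 52208722), behaved differently. It had 63, 125 and 45 counts in Tespa1+/+ and 18, 12 and 17 in Tespa1-/- libraries, or 3.47, 3.96 and 3.04 against 1.06, 0.827 and 1.37 CPM. Every Tespa1-/- library lay below every Tespa1+/+ library by a wide margin. The log2 fold change was -1.71 (SE 0.21, adjusted p 3.3e-04), a 3.27-fold lower level. Hoxa6 shares no exonic bases with another annotated gene.

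On the 5′ side of HoxA the abundant genes were found. Hoxa7 (52214491 to 52221854), a gene of immature blood cells that is also active in leukemia, had 659, 1067 and 492 counts against 722, 702 and 532. Scaled to depth these were 36.3, 33.8 and 33.2 against 42.4, 48.4 and 42.9 CPM, so that all Tespa1-/- values were higher. The log2 fold change of 0.37 (SE 0.07, adjusted p 0.00276) passed the test while its 1.29-fold size stayed below the call. Hoxa9 (52223100 to 52231089), which supports stem cell function and drives leukemia when overexpressed, was at 48.0, 50.1 and 45.3 against 42.5, 43.1 and 38.7 CPM. All Tespa1-/- values were lower (log2 fold change -0.21, SE 0.06, adjusted p 0.0241), with a fold of 1.15. After a correction for gene length this value was -0.00 (adjusted p 0.955) with the length implied by the deposited values and 0.07 (adjusted p 0.363) with the annotated exonic length, so that the direction of Hoxa9 depended on the scaling.

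Hoxa10 (52231197 to 52240854), another regulator of progenitor growth, had 58, 94 and 29 counts against 17, 26 and 22. In CPM the values were 3.19, 2.98 and 1.96 against 0.998, 1.79 and 1.77, so the lowest Tespa1+/+ library was close to the Tespa1-/- range without entering it. The log2 fold change was -0.88 (SE 0.28, adjusted p 0.0288). This call did not hold when single libraries were left out: the adjusted p was 0.0821 without Tespa1+/+ replicate 1, 0.0916 without Tespa1+/+ replicate 2 and 0.089 without Tespa1-/- replicate 1, with log2 fold changes of -0.76, -0.79 and -0.62. In DESeq2 it was not passed either (log2 fold change -0.86, adjusted p 0.0732).

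**Figure D2:**
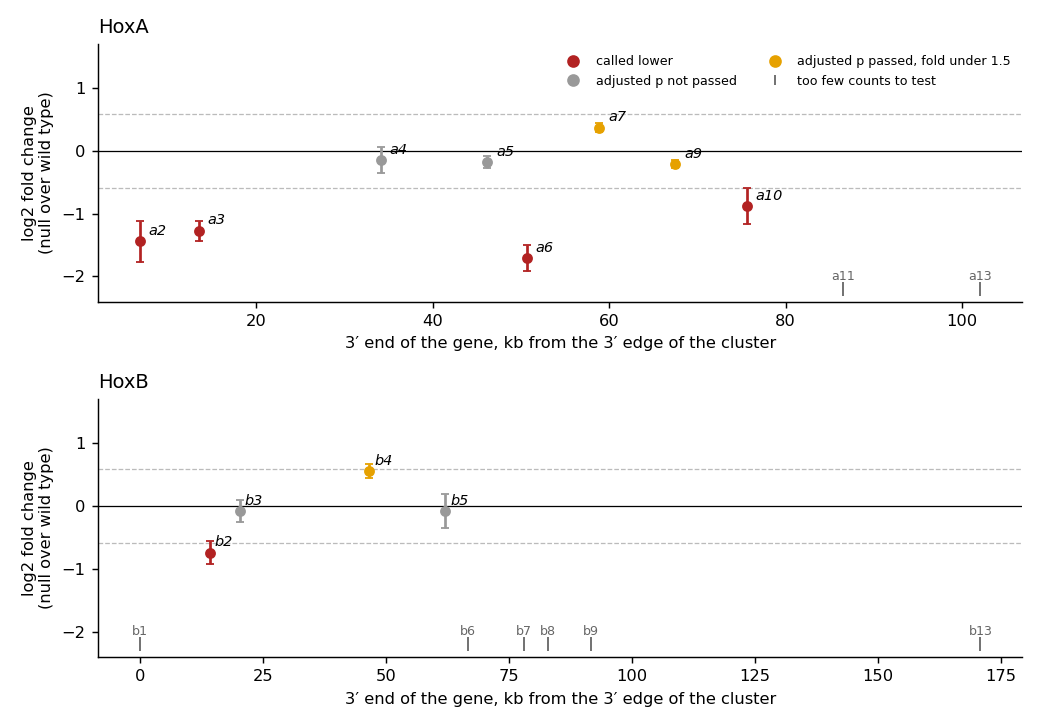
Log2 fold change (Tespa1-/- over Tespa1+/+, bars ± SE) of tested HoxA (top) and HoxB (bottom) genes by the distance of the 3′ end of each gene, in kb, from the 3′ edge of its cluster, with dashed lines at a fold of 1.5 and ticks for other genes with too few counts to test. In HoxA the genes called lower (red) are separated by genes that were not, and the tested genes of HoxB lie in the 3′ part of the cluster.

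In HoxB, 4 of 10 genes were tested. Hoxb2 (chromosome 11, 96350525 to 96354012), a hindbrain gene, had 40, 72 and 37 counts in Tespa1+/+ and 25, 23 and 13 in Tespa1-/- libraries. Its level fell from 2.33 ± 0.152 to 1.37 ± 0.282 CPM (SD, n = 3) without overlap (log2 fold change -0.74, SE 0.19, adjusted p 0.0107), and in DESeq2 a similar log2 fold change of -0.76 did not pass (adjusted p 0.0916). Hoxb3 (96323326 to 96347930) spread from 4.78 to 4.90 CPM in Tespa1+/+ and from 3.55 to 5.64 CPM in Tespa1-/- libraries, and the genotypes overlapped (log2 fold change -0.08, SE 0.17, adjusted p 0.695). The sign of the Hoxb3 value changed with the length correction and when Tespa1-/- replicate 3 was left out.

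Hoxb4 (96318267 to 96321638), which expands hematopoietic stem cells when overexpressed, had 185, 331 and 121 counts against 253, 197 and 178. In CPM these were 10.2, 10.5 and 8.16 against 14.9, 13.6 and 14.4, and all Tespa1-/- values were the higher ones. The log2 fold change was 0.56 (SE 0.11, adjusted p 0.00362). At 1.48-fold, Hoxb4 was the member just below the fold that was required, and it was called higher when Tespa1+/+ replicate 1 (0.60), Tespa1+/+ replicate 2 (0.64) or Tespa1-/- replicate 2 (0.60) was left out. Hoxb5 (96303336 to 96306121), known as a marker of long-term stem cells, was near the cutoff of the filter on low counts. It had 13, 23 and 16 counts against 13, 10 and 11. Its genotypes overlapped, and the log2 fold change of -0.08 (SE 0.27, adjusted p 0.882) did not pass.

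Thus 4 of 8 tested HoxA genes and 1 of 4 tested HoxB genes were called lower, against 19.2% of all genes tested. These counts and those that follow include Hoxa2, which had to differ to be tested and adds no support. The genotypes did not overlap for 9 of the 12 tested members (75%), against 69.1% of all genes tested, so separation of the libraries was about as frequent among Hox genes as elsewhere. At an adjusted p under 0.05 with any fold, 6 members were lower and 2 higher, against 31.8% and 31.5% of all genes. With an unadjusted p under 0.05 and a fold over 1.5, the cutoff that the study used, the same 5 members were lower and 0 higher, against 19.9% and 14.4% of all genes. The median log2 fold change of the 12 tested members was -0.20, beside 0.00 over all genes.

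Next, the make-up of the Hox transcripts was compared per length, from the deposited FPKM values. For several members the length implied by these values was above the annotated exonic length, which was 2876 bases for Hoxa7 and 5580 for Hoxa9. For Hoxa5, Hoxa6 and Hoxb4 the lengths matched. With exonic lengths Hoxa7 would lie above Hoxa9 in both genotypes, so the order below rests on the deposited lengths. In Tespa1+/+ LSKs the highest FPKM levels were those of Hoxa9 (6.75 ± 0.334), Hoxa7 (6.41 ± 0.313) and Hoxa5 (6.09 ± 0.158, all SD, n = 3), and neighbours in this order overlapped. Hoxa6 (4.13 ± 0.544) and Hoxb4 followed at overlapping levels of 3.59 to 4.68 and 3.29 to 4.22 FPKM. The remaining members were at about 1 FPKM or below. In Tespa1-/- LSKs Hoxa7 (7.74 ± 0.584) came first with all of its values above those of Hoxa9 (5.46 ± 0.313), Hoxb4 (5.11 to 5.58) and Hoxa5 (4.99 ± 0.461), of which the last 3 overlapped with their neighbours, and Hoxa6 was at 1.20 ± 0.301 FPKM.

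As a share of the summed Hox FPKM of a library, Hoxa6 made up 12.5%, 14.2% and 11.7% for Tespa1+/+ against 4.07%, 3.27% and 5.65% for Tespa1-/-. Hoxb4 went the other way, with 12.5%, 12.8% and 10.7% against 19.5%, 18.3% and 20.2%. Hoxa7 took 20.5%, 19.1% and 20.1% against 25.7%, 30.1% and 27.8%. The share of Hoxa9 was 21.0 ± 0.427% against 19.6 ± 0.657% and that of Hoxa5 19.0 ± 1.27% against 18.0 ± 1.14% (SD, n = 3). Together, Hoxa5, Hoxa7, Hoxa9 and Hoxb4 held 71.5% to 72.0% of the Hox FPKM in Tespa1+/+ libraries and 84.0% to 86.1% in Tespa1-/- libraries. These genes had the highest mean FPKM in Tespa1-/- libraries. In Tespa1+/+ libraries the mean of Hoxa6 was above that of Hoxb4. The choice leaves out Hoxa6, which fell most, and so favours a larger share in Tespa1-/- libraries. These shares depend on the lengths behind the deposited FPKM values, describe the libraries and carry no test.

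**Figure D3:**
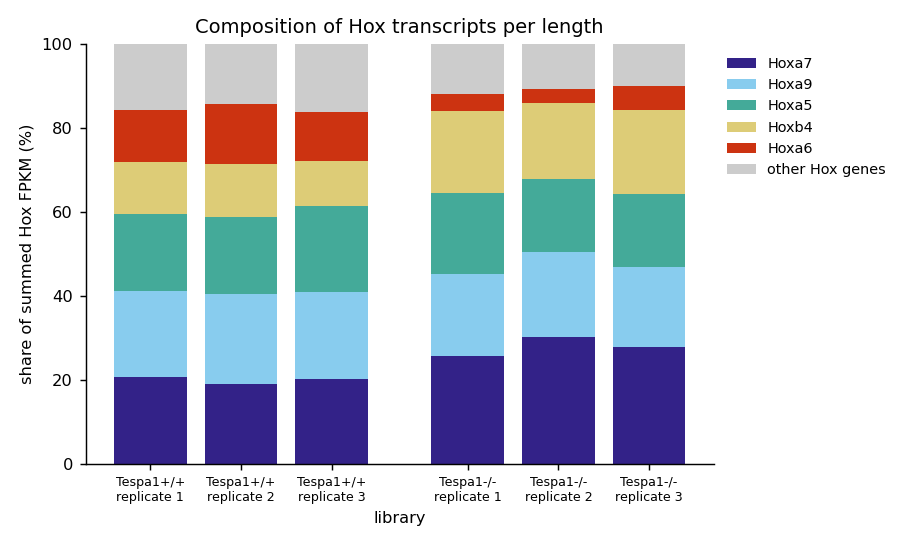
Share of the summed FPKM of all Hox genes (%) taken by each of 5 genes and by the other Hox genes together, in a bar per library. Hoxa6 (red) shrinks from 11.7% to 14.2% in Tespa1+/+ to 3.27% to 5.65% in Tespa1-/- libraries, while Hoxa7 and Hoxb4 widen.

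To compare neighbours without any scaling between libraries, the ratio of the counts of adjacent tested genes was formed within each library. This comparison was chosen after the values were seen. The ratio of Hoxa6 to Hoxa7 was 0.0956, 0.117 and 0.0915 for Tespa1+/+ against 0.0249, 0.0171 and 0.0320 for Tespa1-/-, a difference of -2.08 on the log2 scale. On its other side, Hoxa5 over Hoxa6 was 3.14, 2.75 and 3.76 against 10.2, 11.3 and 6.59. Hoxa3 over Hoxa4 was 3.75, 3.65 and 4.30 against 1.13, 2.21 and 2.43. Hoxa7 over Hoxa9 went from 0.756, 0.675 and 0.732 to 0.997, 1.12 and 1.11, so that Hoxa7 had the larger count in 2 of the Tespa1-/- libraries. For Hoxa4 over Hoxa5 the ratios overlapped (0.141, 0.148 and 0.136 against 0.164, 0.140 and 0.125), as they did for Hoxa2 over Hoxa3 and for Hoxa9 over Hoxa10. In all, 7 of the 10 ratios did not overlap between genotypes, which held for 62.4% of the ratios of neighbouring tested genes over all chromosomes. An exact two-sided permutation test over 3 against 3 libraries cannot go below 0.1, which each of these 7 reached (adjusted p 0.143 over the 10 ratios).

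Paralogs of HoxA and HoxB were compared in the same way at the 4 positions where both were tested. Position 2 was the only one at which both paralogs were called lower. Hoxa2 had to differ to be tested, and Hoxb2 did not pass in DESeq2 (adjusted p 0.0916). The 2 calls are therefore no support for a change by position. Hoxa2 over Hoxb2 overlapped at 0.775, 0.444 and 0.514 against 0.400, 0.217 and 0.462 (exact permutation p 0.2, adjusted 0.267). Hoxa3 over Hoxb3 was 1.18, 1.23 and 1.39 for Tespa1+/+ against 0.354, 0.667 and 0.773 for Tespa1-/-, so that Hoxa3 had the larger count in the former and Hoxb3 in the latter. Hoxa4 over Hoxb4 was 0.151, 0.154 and 0.190 against 0.119, 0.0965 and 0.0787. Both were at the smallest exact permutation p of 0.1 (adjusted 0.2 over the 4 ratios). Hoxa5 over Hoxb5 overlapped (exact permutation p 0.5). At the positions from 6 on, Hoxa6, Hoxa7, Hoxa9 and Hoxa10 were the sole tested genes.

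**Figure D4:**
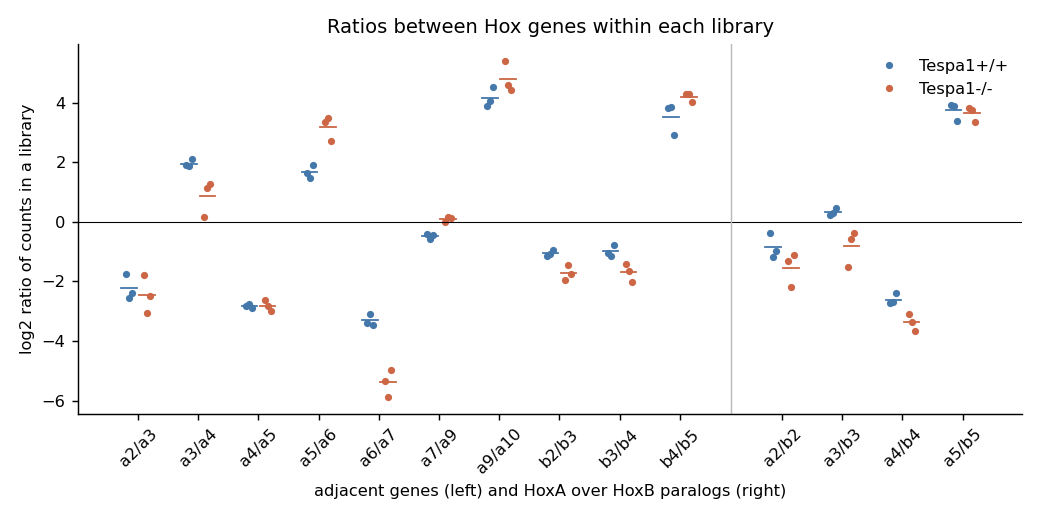
Log2 ratio of the counts of adjacent Hox genes (left of the grey line) and of HoxA over HoxB paralogs (right), with a point per library and a bar at the mean of 3 libraries for Tespa1+/+ (blue) and Tespa1-/- (orange). The ratio of Hoxa6 to Hoxa7 shows the largest shift, from a mean log2 ratio of -3.31 to -5.39.

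Genes within and around the clusters were then listed by position. Inside HoxA, 2 of 20 other annotated genes were tested. The antisense gene Hoxaas3 was higher (0.771, 0.602 and 1.08 against 1.29, 1.45 and 1.21 CPM, log2 fold change 0.75, SE 0.27, adjusted p 0.0401), and the antisense gene Hotairm1 at the 3′ edge did not pass (0.59, SE 0.26, adjusted p 0.0816). Hoxaas3 overlaps exons of Hoxa7 and Hoxa3 on the opposite strand, where 20.4% of the exonic bases of Hoxa7 and 25.4% of those of Hoxa3 are shared with antisense genes. Inside HoxB, 3 of 9 other genes were tested, of which the processed pseudogene Gm11539 was higher, at 86.9 ± 3.39 against 143.5 ± 10.1 CPM (SD, n = 3; log2 fold change 0.72, SE 0.06, adjusted p 4.3e-05), and Hoxb5os did not pass (-0.20, adjusted p 0.658). Whether the reads of Gm11539 came from this locus or from genes of like sequence elsewhere was not tested. Hoxb3os covers 52.9% of the exonic bases of Hoxb3 and 27.3% of those of Hoxb2 on the other strand, and had 70, 96 and 60 counts against 53, 28 and 26 (log2 fold change -0.58, SE 0.22, adjusted p 0.0525, not passed). Whether counting used the strand was not stated, so reads of Hoxa3, Hoxa7, Hoxb2, Hoxb3 and Hoxb5 (3.6% shared with Hoxb5os) cannot be told apart from those of their antisense partners in these stretches. Hoxa4 shares 16% of its exonic bases with Gm29430, which was at 0 counts in every library. Hoxa5, Hoxa6, Hoxa10 and Hoxb4 share no exonic bases with an annotated gene. All 7 other genes inside HoxC and all 10 inside HoxD were at 0.

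Of the 3 nearest protein-coding genes on each side of HoxA, 5 were tested and 0 were called. Skap2, the neighbour on the 3′ side, had a log2 fold change of 0.28 (SE 0.03, adjusted p 2.1e-04, 1.21-fold), and Hibadh on the 5′ side one of 0.11 (SE 0.04, adjusted p 0.0464). Snx10, farther out on the 3′ side, was at -0.54 (SE 0.14, adjusted p 0.0103, 1.46-fold). Around HoxB, Atp5g1, a subunit gene of the mitochondrial ATP synthase, was higher (log2 fold change 1.01, adjusted p 3.9e-06) among 3 tested. The silent HoxC and HoxD clusters were flanked by active genes as well: Atf7 (-0.81, adjusted p 4.2e-06) and Cbx5 (-0.63, adjusted p 5.7e-06) were lower near HoxC, and Atp5g3 (0.81, adjusted p 2.5e-06) was higher near HoxD.

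The proteins that work with or on Hox genes were taken from lists written from general knowledge. The TALE cofactors bind DNA together with Hox proteins. Of 11 genes in that list 8 were tested, of which 2 (25%) were lower and 0 higher (median log2 fold change -0.25). Over all genes tested, 19.2% were lower and 14% higher, the background for each list. Meis1, the partner of HOXA9, had 980, 1740 and 769 counts against 358, 331 and 273, and fell from 53.6 ± 1.64 to 21.9 ± 0.893 CPM (SD, n = 3; log2 fold change -1.29, SE 0.06, adjusted p 2.8e-06). The PBX family genes Pbx2 (0.05, adjusted p 0.675) and Pbx3 (0.15, adjusted p 0.378) did not pass, and their genotypes overlapped.

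The MLL and DOT1L complexes keep Hox genes active through methylation of histone H3. The list of 20 genes also holds Kat6a, Kat6b, Kat7 and Brpf1, which belong to acetyltransferase complexes. Of its genes 19 were tested, of which 9 (47.4%) were lower and 1 higher (median log2 fold change -0.49). Kmt2a, which encodes the methyltransferase MLL1, fell from 257.7 ± 2.71 to 100.9 ± 1.67 CPM (SD, n = 3; log2 fold change -1.35, SE 0.03, adjusted p 4.1e-07). The elongation factor gene Aff4 (-1.32), the acetyltransferase genes Kat6a (-1.23) and Kat6b (-0.97), and Dot1l (-0.63) were also called lower. Dpy30, a small core subunit shared by such methyltransferases, was the gene called higher (0.62, SE 0.06). Psip1, which tethers MLL to chromatin, did not pass (-0.03, adjusted p 0.555), and Men1 was too low to test.

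Polycomb repressive complexes silence Hox genes. Of 26 genes tested, 4 (15.4%) were lower and 0 higher (median log2 fold change -0.11), a share near the background. These were Cbx2 (-1.11, SE 0.08), Phc1 (-0.89, SE 0.08), Cbx7 (-0.72, SE 0.14) and Asxl1 (-0.70, SE 0.03). The methyltransferase gene Ezh2 did not pass (-0.03, adjusted p 0.4), and Bmi1, a core subunit, passed with a fold under 1.5 (-0.22, SE 0.05, adjusted p 0.00525). Among 17 other regulators, 13 were tested, with 4 lower (30.8%) and 2 higher, or 15.4%, (median log2 fold change -0.18). The histone demethylase genes Kdm6b (-1.60, SE 0.04) and Kdm6a (-0.78, SE 0.06), the retinoic acid receptor gene Rara (-1.29, SE 0.09) and the DNA methyltransferase gene Dnmt3a (-0.92, SE 0.10) were lower. Npm1, whose mutant form goes with high HOX expression in leukemia, and Gmnn, a binding partner of Hox and Polycomb proteins, were higher (both 0.68). The Cdx genes, upstream activators of Hox genes in the embryo, were at 0 counts in every library.

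Known targets of HOXA9 and MEIS1 came last. Of 10 genes 9 were tested, of which 6 (66.7%) were lower and 1 higher (median log2 fold change -0.99). The cytokine receptor gene Flt3 fell from 225.8 ± 2.75 to 112.1 ± 0.708 CPM (SD, n = 3; log2 fold change -1.01, SE 0.03, adjusted p 1.0e-06). Erg (-1.07, SE 0.08), Bcl2 (-1.01, SE 0.06), Sox4 (-0.99, SE 0.04), Eya1 (-1.53, SE 0.11) and Cdk6 (-0.63, SE 0.02) were also lower. Myb passed with a fold under 1.5 (-0.19, SE 0.02), and Lmo2 did not pass (-0.10, adjusted p 0.529). Flt3 is also 1 of the 14 LSK and stem cell markers above.

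**Figure D5:**
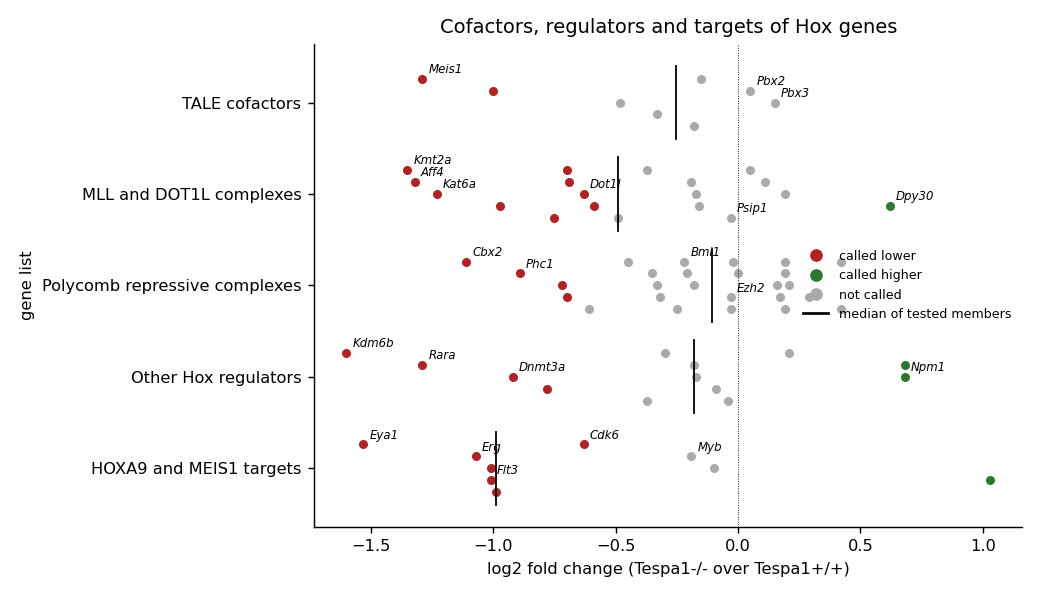
Log2 fold change (Tespa1-/- over Tespa1+/+) of the tested members of 5 gene lists, with a point per gene, some of them named, and a black line at the median of each list. Medians run from -0.99 for HOXA9 and MEIS1 targets to -0.11 for Polycomb genes, with points called lower in red, higher in green and not called in grey.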

How the data were processed

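RNA was sequenced from LSKs of 3 Tespa1+/+ and 3 Tespa1-/- samples, grouped by sample titles. The deposited table holds raw counts per gene (whole numbers, not normalised) and FPKM values, which the authors scaled by gene length and library total without further factors. The submitters' processing notes name CASAVA 1.8, HISAT2, StringTie, edgeR and build GRCm38, and the strand setting of counting is not given in the sources used here. Columns of the authors' own comparisons were not used. All 39 Hox genes had the same coordinates in GENCODE M21. Counts were filtered with filterByExpr (0.614 CPM in at least 3 libraries), scaled by TMM and compared by the quasi-likelihood F-test of edgeR 4.0.16 under R 4.3.3, without covariates, with Benjamini-Hochberg adjustment over 15332 genes. Ratios were tested with exact two-sided permutation tests (scipy 1.17.1). Alternatives used RLE factors, total counts, other filters, DESeq2 1.42.0, limma-trend 3.58.1 on log2(FPKM + 1) or log2(FPKM + 0.1), a replicate block, length corrections (loess, span 0.5), leaving out each library, and an unadjusted p. Scripts were tested on simulated data. Floors cover counting error only, whereas SDs and SEs include the spread between libraries. Genes named were all Hox genes, Tespa1, list members that were called or central, and genes inside or beside the clusters. Members, lists and tests were chosen with earlier results of these data known. Values of some members and list genes are not reported here, although they enter the counts and sums.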

Additional observations from a re-analysis of the deposited data

How the results depend on the processing

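Of 191 values of single Hox genes under the alternatives, 171 kept their direction and their side of the threshold, and Hoxa6 did so in all 17 of its alternatives (log2 fold change -2.07 to -1.23), as did Tespa1 (-1.33 to -0.89). The number of Hox genes called lower, 5, became 3 in DESeq2 (Hoxa2, Hoxa3 and Hoxa6) and 1 (Hoxa6) with limma-trend on log2(FPKM + 1), on log2(FPKM + 0.1) and on log2(FPKM + 1) without a filter. With the FPKM filter 6 members were tested. Leaving out each library gave 4 to 5 lower and 0 to 1 higher Hox genes. Over all genes, limma-trend on log2(FPKM + 1) gave 1626 lower and 1070 higher genes, 1716 and 1090 without a filter, and on log2(FPKM + 0.1) 1365 higher genes. Leaving out each library gave 2716 to 2885 lower and 2078 to 2246 higher genes. The sign turned for Hoxb3 (-0.28 to 0.06 when leaving out each library, 0.04 and 0.07 with the length corrections by implied and exonic length, 0.06 without Tespa1-/- replicate 3), for Hoxa9 (0.07 with exonic length) and for Hoxb5 (-0.18 to 0.11 when leaving out each library, 0.11 without Tespa1+/+ replicate 3, 0.01 without Tespa1-/- replicate 2). Where no value or construction shows it, the cause was not tested. Total counts shifted the median of all genes by -0.10 and the share of higher genes among those called from 42.1% to 29.8%, and the length corrections shifted the median by 0.11 and gave shares of 48.5% and 47.0%. With a replicate block in the model, 4 Hox genes were lower (Hoxa10 at -0.86, adjusted p 0.0657) and 0 higher, with 2871 lower and 2101 higher genes in all. The deviations of same-numbered libraries correlated at -0.090, -0.095 and 0.025. The titles link these libraries by number only, and correlations over so few libraries cannot show whether a batch was shared. Depth limits Hoxa2, Hoxa4 and Hoxb5 most, which had the lowest CPM of the tested members in Tespa1+/+ libraries.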
